A study of Mus musculus with 18 samples.

Results

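The 89 genes described here carry the symbols of the oxidative phosphorylation subunits, the proteins of the mitochondrial respiratory chain and of ATP synthase. They were chosen from the count table by name and by a minimum of counts, with earlier results of these data known. The names were symbols beginning with Ndufa, Ndufb, Ndufc, Ndufs or Ndufv and a digit, with Uqcr, with Cox and a digit from 4 to 8, or with Atp5, the 4 genes Sdha to Sdhd, and the mitochondrially encoded symbols beginning with mt-Nd, mt-Co, mt-Atp or mt-Cytb. Of the 35655 genes in the table, 117 carried such a symbol, and 28 of them had fewer than 180 counts over the 18 libraries and were left out (16 had no count at all). The remaining 89 genes comprised 77 nuclear genes and 12 genes of the mitochondrial genome, here called mt- genes. By symbol, 37 nuclear genes belonged to complex I, 4 to complex II, 8 to complex III, 12 to complex IV and 16 to complex V, and the mt- genes to complexes I (6), III (1), IV (3) and V (2).

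The libraries were made from carotid arteries of male wild-type (WT) C57/BL6 mice without a high-fat diet, which were 11 weeks old at surgery. A wire was passed through the artery, which strips the endothelium, damages the media and is followed by growth of a neointima. Vessels were taken before injury (day 0, 4 libraries) and 7, 14, 21 and 28 days after it (4, 3, 4 and 3 libraries). All groups shared this genotype and diet. Vessels with thrombosis had been excluded. From each vessel the area holding the outer elastic lamina and the neointima was cut out by laser and up to 70 sections were pooled, so that each library is a mixture of cell types. The labels call the day 0 vessels pre-injury, yet 3 of the 4 carry the mouse number of a day 21 library. Only the left artery of a mouse was injured and the right one was kept as the control, but the labels do not state the side of the day 0 vessels. Sequencing was by MACE (massive analysis of cDNA ends), which counts polyadenylated transcripts at their 3′ end, each original molecule once.

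Oxidative phosphorylation passes electrons from NADH (complex I) and succinate (complex II) through complex III to oxygen at complex IV, and complex V uses the resulting proton gradient to make ATP. Most subunits are encoded in the nucleus, translated in the cytosol and imported. A small hydrophobic core of complexes I, III, IV and V is transcribed from mitochondrial DNA as long polycistronic RNAs that are cut into single messages. Complex II is wholly nuclear and doubles as an enzyme of the tricarboxylic acid cycle. The contractile smooth muscle of an artery uses both glycolysis and respiration, and macrophages are known to use either to differing degrees.

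The libraries held 440675 to 878310 counts (median 659166), and each had between 10674 and 13361 genes with a count. Marker lists of cell types shifted with day. The 12 smooth muscle genes listed summed to 35773 to 40701 CPM (a gene's counts relative to the library's total after scaling between libraries) on day 0, 1883 to 7609 on day 7, 8199 to 25442 on day 14, 9340 to 23475 on day 21 and 22013 to 30597 on day 28. The 16 macrophage genes summed to 158 to 612, 6109 to 8708, 1632 to 3812, 2390 to 4044 and 1057 to 1430 CPM on the same days, with Mpeg1 at 0 in all 4 day 0 libraries. All 16 macrophage genes were called higher on days 7, 14 and 21 and 5 on day 28, and of 12 proliferation genes 11 were called higher on day 7, 1 on day 14, 2 on day 21 and none on day 28 (edgeR, as below). The 12 fibroblast genes summed to 61.8% of their day 0 mean on day 7 (2 called higher, 6 lower) and to 121, 116 and 79.3% on days 14, 21 and 28. The 12 endothelial genes summed to 157% on day 7 (4 higher, 1 lower) and to 113, 118 and 106% later. The 5 red cell genes summed to 731% on day 7 (4 called higher), with libraries at 164 to 2347 CPM against 40.2 to 369 on day 0, and stood at 20.9, 80.8 and 21.7% on days 14, 21 and 28, with none called. The 6 immediate-early and heat-shock genes listed as signs of stress or handling summed to 496 to 1808 CPM on day 0 and to 36.9, 28.3, 37.1 and 45.1% of that mean on days 7 to 28, with 2, 1, 0 and 0 called lower. Of 12 adipocyte genes 5 were tested and all 5 were called over all days. Their list summed to 68.6, 75, 154 and 149% of day 0 on days 7 to 28, and Lpl, Fabp4 and Plin4 held 3758, 2173 and 1827 counts, whereas Lep was at 0 throughout and Adipoq and Plin1 had 8 and 3. Of 16 striated muscle genes, which summed to 156 to 669, 39.9 to 366, 96.5 to 582, 127 to 544 and 319 to 1131 CPM on the 5 days, all but Tcap were at 0 in at least 1 day 0 library and Myh6 was at 0 in every library. Acta1 and Mylpf were at 0 in all day 0 libraries and averaged 35.9 and 42.8 CPM on day 14, when Mylpf was called higher (adjusted p = 0.0446). The part of these shifts in the values below was not tested, and in such bulk libraries fewer cells of a type and less RNA per cell cannot be told apart.

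The nuclear genes together took up a falling share of each library until day 21, while the share of the mt- genes on days 7, 14 and 21 overlapped that of day 0. On day 0 the 77 nuclear genes made up 1.64, 1.79, 1.80 and 1.75% of the counts in the 4 libraries. The share was 1.75, 1.5, 1.58 and 1.56% on day 7 and 1.35, 1.37 and 1.41% on day 14. On day 21 it was 1.15, 1.17, 1.17 and 1.13%, and each of these 4 libraries lay below every library of the other days. On day 28 the share was 1.47, 1.37 and 1.52%, above all of day 21 and below all of day 0. The means were 1.74 ± 0.0735% for day 0 and 1.15 ± 0.0210% for day 21 (SD, n = 4 each), the latter being 66.2% of the former. In the day means the smooth muscle sum was lowest and the macrophage sum highest on day 7, and the adipocyte sum was highest on day 21. The nuclear share was lowest on day 21, and the part of these sums in it was not tested.

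The 12 mt- genes made up 3.06, 3.48, 3.41 and 4.20% of the counts on day 0. They made up 2.66, 4.18, 2.99 and 2.13% on day 7, 3.21, 2.53 and 1.77% on day 14, 3.39, 2.87, 4.59 and 3.59% on day 21 and 2.72, 2.03 and 2.26% on day 28. The ranges of days 0, 7, 14 and 21 overlapped, whereas all 3 day 28 libraries lay below all 4 of day 0. The day 21 mean of 3.61 ± 0.719% (SD, n = 4) was 102% of the day 0 mean of 3.54 ± 0.479% (SD, n = 4). The log2 ratio of nuclear to mt- counts was -0.90, -0.96, -0.92 and -1.27 on day 0 and -1.56, -1.29, -1.98 and -1.67 on day 21 in replicate order, so all 4 day 21 libraries lay below day 0, its replicate 4 being closest. On days 7, 14 and 28 the ratio ranged from -1.48 to -0.45, from -1.25 to -0.33 and from -0.89 to -0.56. Transcript ends are counted here without regard to length, so only the movement of this ratio between libraries is read, not its level.

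**Figure D1:**
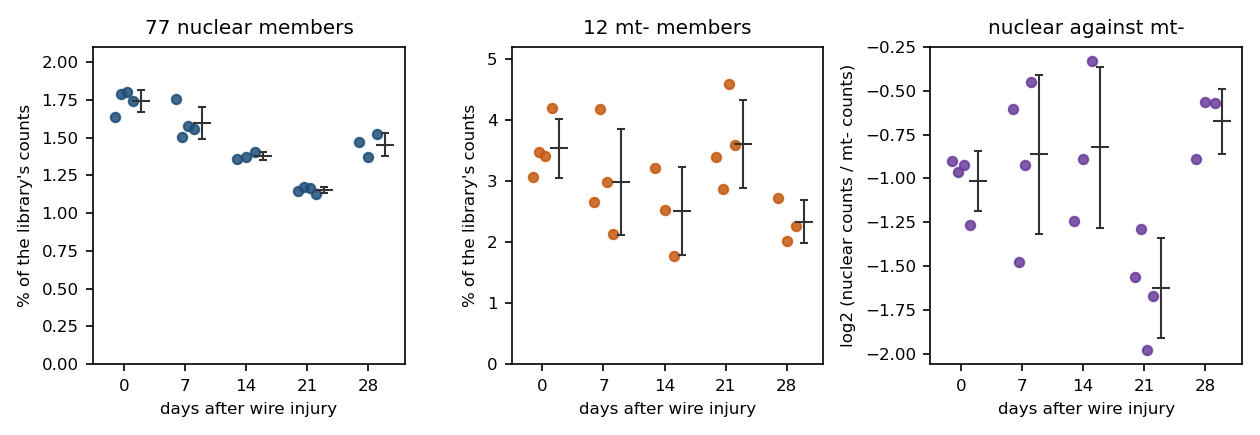
Share of each library's counts (%) held by the 77 nuclear genes (left) and the 12 mt- genes (middle), and the log2 ratio of the 2 sums (right), by day after injury. Points are libraries, bars the mean ± SD of the day. The 4 day 21 libraries form the lowest nuclear group, at 1.13 to 1.17%, while their mt- share spans the day 0 values.

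Each gene was then tested by edgeR's quasi-likelihood test in a single fit of all 18 libraries, with p-values adjusted by Benjamini-Hochberg over the 10312 genes tested and calls made at 0.05. All 89 genes entered the fit. On day 21, 22 of the 77 nuclear genes were lower than on day 0 and none was higher, against 2.93% of all genes tested called lower and 5.92% called higher. None of the 12 mt- genes was called on that day in either direction (0 also at an unadjusted p under 0.05, and 0 by DESeq2), whereas 48 of the nuclear genes had such a p. Of the 10312 genes tested, 2263 had such a p. The median log2 fold change was -0.65 for the nuclear genes, with 70 of 77 below 0, and -0.01 for the mt- genes, with 6 of 12 below 0, while the median of all genes tested was 0.07. With the 3 mice that gave a day 0 and a day 21 library as a block, 19 nuclear genes were called on day 21, 17 of them from the 22. The total of all genes called on day 21 with this block is not given here. Without day 21 replicate 4 the count was 13, and 10 of the 22 kept their call whichever library was left out.

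The other days gave fewer calls among the nuclear genes. On day 7, 7 were lower and 1 was higher (8.53% of all genes lower, 11.3% higher), and all 7 falls were in complex I, which supplied 37 of the 77 genes. On day 14, 1 was lower and none higher (1.42% and 4.80% of all genes). On day 28, 2 were lower and none higher (0.369% and 0.970% of all genes). The median log2 fold changes of the nuclear genes on days 7, 14 and 28 were -0.13, -0.35 and -0.36, and those of the mt- genes -0.56, -0.74 and -0.74, with all 12 mt- genes below 0 on each of these days. On day 7, 3 mt- genes were called lower. None was called on days 14 and 28, with 7 at an unadjusted p under 0.05 on each day and 0 and 1 called by DESeq2. Of the 10312 genes tested, 1770 and 1521 had such a p on these days, and DESeq2 called 860 and 366. In the mouse block only 1 day 0 library stood outside the shared mice. With it the day 7 calls were 2 nuclear genes (Cox5a and Ndufv1) and no mt- gene, and no member was called on day 14 or day 28. Calls among all genes with this block were 1047, 199 and 3 on days 7, 14 and 28. The main fit had 100 of all genes higher and 38 lower on day 28. The block moved the mt- median from -0.56 to -0.23 on day 7, from -0.74 to -0.22 on day 14 and from -0.74 to -0.37 on day 28. Without day 7 replicate 3, 4 nuclear genes were called on day 7. Without day 14 replicate 1 none was called on day 14, and without day 28 replicate 2 none on day 28. All comparisons with day 0 share the same 4 day 0 libraries.

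**Figure D2:**
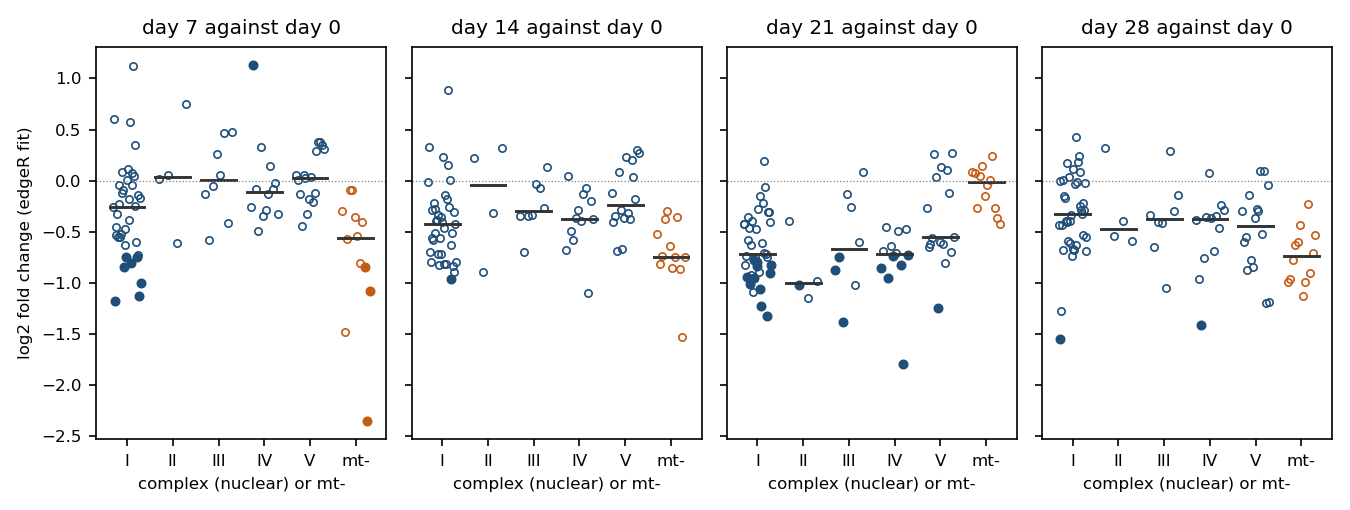
Log2 fold change against day 0 of every gene on days 7, 14, 21 and 28, grouped by complex (nuclear genes, blue) or as mt- genes (orange). Filled points passed the adjusted p of 0.05, open points did not, and black lines are group medians. On day 21 the nuclear medians of complexes I to V lie between -0.999 and -0.55 and the mt- median at -0.01.

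Complex I, the NADH dehydrogenase that feeds electrons into the chain, had 11 of its 37 nuclear genes lower on day 21. The lowest adjusted p of any member on that day belonged to Ndufs5, an accessory subunit on the intermembrane side of the complex (chr4:123606481-123612002, GRCm39). Ndufs5 stood at 309.7, 276, 337 and 257 CPM on day 0, 229.7, 156, 159.5 and 234 on day 7, 152, 125 and 177 on day 14, 122, 113, 105 and 130.3 on day 21 and 270, 239.8 and 193 on day 28. The libraries of days 7, 14 and 21 all lay below the day 0 range, and day 28 overlapped it. Its log2 fold change was -1.33 ± 0.23 SE, edgeR adjusted p = 0.000556, on day 21. On day 14 it was the 1 member called (-0.96 ± 0.25 SE, edgeR adjusted p = 0.0175). Without day 14 replicate 1 or 2, or with the mouse block, the day 14 call was lost. Its message shares 274 bases with the pseudogene Ndufs5-ps, which had 17 counts.

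Ndufb9, Ndufb7, Ndufa5, Ndufb10 and Ndufa13, accessory subunits placed in the membrane arm or around the core, also fell on day 21. Ndufb9 ranged from 48.4 to 133 CPM on day 21 and from 180.4 to 329 on day 0 (log2 fold change -1.23 ± 0.28 SE, edgeR adjusted p = 0.00722). Its exons overlap those of Mtss1 and Tatdn1 on the other strand, and whether the counting used strand is not given in the sources used here. The Ndufb7 log2 fold change was -1.06 ± 0.24 SE, edgeR adjusted p = 0.00707. Ndufa13, which is also known as GRIM-19, had a log2 fold change of -0.94 ± 0.20 SE, edgeR adjusted p = 0.00427, with libraries at 256, 178, 201 and 226 CPM on day 21 and at 432, 384, 472 and 367 on day 0. For Ndufa5 and Ndufb10 the log2 fold changes were -1.01 and -0.95 (edgeR adjusted p = 0.0137 and 0.017), the Ndufa5 call being lost without day 21 replicate 4. Ndufv1, Ndufb3, Ndufv3, Ndufb4 and Ndufb1 were called with log2 fold changes between -0.91 and -0.78 and adjusted p-values of 0.0268 to 0.0475, and each of these 5 calls was lost when some single library was left out. Exons of Ndufa13 and Ndufb1 overlap Tssk6 and Cpsf2 on the other strand, and those of Ndufa13 also overlap the counted gene Yjefn3 on the same strand. Ndufs1, the iron-sulphur subunit of the electron path and the least counted member (367 counts in all), was the complex I gene with the smallest p among those above 0 on day 21 (0.20 ± 0.63 SE, edgeR adjusted p = 0.909) and on day 14 (0.89, adjusted p = 0.581). No complex I gene was called higher against day 0 on any day.

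Ndufv1, the subunit that binds NADH and flavin (chr19:4057384-4062814), stood at 180.2, 145, 155 and 147 CPM on day 0 and at 69.4, 59.3, 73.8 and 84.0 on day 7. It stayed at 84.8, 81.2 and 86.1 on day 14 and 100.5, 94.8, 54.3 and 83.8 on day 21, and was 105, 179 and 179 on day 28. No library of days 7, 14 or 21 reached the day 0 range, while 2 of the 3 day 28 libraries lay within it. The log2 fold change of Ndufv1 on day 7 was -1.13 ± 0.26 SE, edgeR adjusted p = 0.00263, and from day 7 to day 28 it rose by 1.10 ± 0.28 SE, edgeR adjusted p = 0.00851. Both calls held in the 31 alternatives. Ndufv3, a small subunit beside it, was at -1.004 ± 0.26 SE, edgeR adjusted p = 0.0068, on day 7, a call lost with the mouse block. Ndufs6, a zinc-binding subunit, was at -0.74 ± 0.25 SE, edgeR adjusted p = 0.0374, a call lost in 10 of 31 alternatives, the mouse block among them. Not all subunits near Ndufv1 were lower on day 7: its partner Ndufv2 was at -0.17 (adjusted p = 0.781), and Ndufs1 had the highest value of complex I, at 1.12 ± 0.61 SE (edgeR adjusted p = 0.23), neither of them called.

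Ndufa11 of the membrane arm (chr17:57024322-57031247) was lower on day 7 and again on day 28. Its libraries stood at 124, 198, 274 and 173 CPM on day 0, 109, 73.7, 75.8 and 80.7 on day 7, 136, 86.5 and 132 on day 14, 148, 82.8, 102 and 97.7 on day 21 and 87.6, 51.3 and 57.5 on day 28. All day 7 and day 28 libraries were under the lowest of day 0, which days 14 and 21 overlapped. The log2 fold change was -1.18 ± 0.29 SE, edgeR adjusted p = 0.0042, on day 7, a call lost with the mouse block. On day 28 it was -1.55 ± 0.32 SE, edgeR adjusted p = 0.0142, a call lost with the mouse block and without day 0 replicate 3, day 28 replicate 2 or day 28 replicate 3. Ndufa11 overlaps exons of Vmac on the other strand. Ndufb10, Ndufb3 and Ndufb9 were also lower on day 7, with log2 fold changes of -0.84, -0.75 and -0.81 (edgeR adjusted p = 0.0164, 0.0426 and 0.0433), and each of these calls was lost with the mouse block and without day 7 replicate 3. Ndufa10, a membrane-arm subunit of the nucleoside kinase fold, had the smallest p among complex I genes above 0 on day 7, at 0.61 (adjusted p = 0.103). It fell from day 7 to day 21, at -1.03 (adjusted p = 0.0148), which was lost with the mouse block (adjusted p = 0.142) and without day 7 replicate 1, day 21 replicate 3 or day 21 replicate 4. Ndufb8 had that place on day 28 (0.43, adjusted p = 0.519). Summed over its 37 nuclear genes, complex I held 6411 to 7038 CPM on day 0, 4724 to 5931 on day 7, 4550 to 5226 on day 14, 4086 to 4266 on day 21 and 5008 to 5912 on day 28, with no overlap of any later day with day 0.

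**Figure D3:**
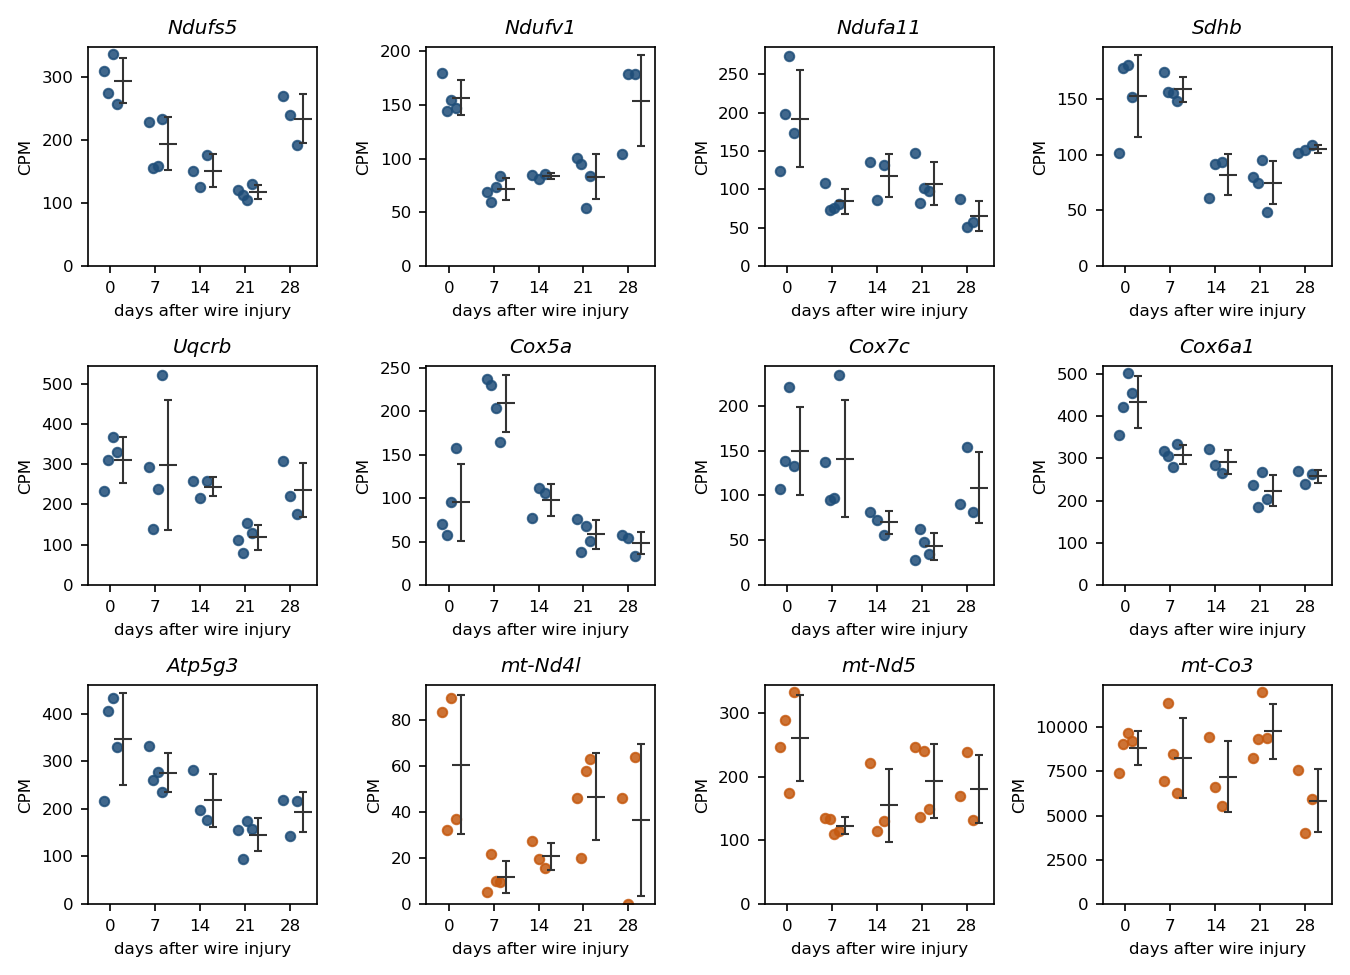
CPM of 12 genes in every library by day after injury (nuclear genes blue, mt- genes orange); points are libraries and bars the mean ± SD of the day, and each panel starts at 0. Ndufs5, Cox7c and Atp5g3 are lowest on day 21, Cox5a peaks on day 7, and mt-Co3 on day 21 overlaps the day 0 range.

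Complex II, succinate dehydrogenase, has 4 subunits, all nuclear. Sdhb, its iron-sulphur protein, stood at 101, 178, 180.4 and 152 CPM on day 0, 174, 156, 156 and 148 on day 7, 60.8, 91.8 and 93.9 on day 14, 80.4, 74.7, 95.4 and 48.9 on day 21 and 102, 104 and 109 on day 28. Days 14 and 21 lay below day 0 throughout, and day 7 did not. For Sdhb the log2 fold change on day 21 was -1.02 ± 0.26 SE, edgeR adjusted p = 0.0143. Between days 7 and 21 it was -1.07 ± 0.26 SE, edgeR adjusted p = 0.0111, both calls being lost without day 21 replicate 4. Sdhd, one of the pair of membrane anchors, was not called against day 0 (log2 fold changes of 0.75 and -0.98 on days 7 and 21, adjusted p = 0.269 and 0.216). It fell between days 7 and 21, at -1.73 ± 0.46 SE, edgeR adjusted p = 0.021. That call was lost with the mouse block (adjusted p = 0.367) and without day 7 replicate 3, day 21 replicate 3 or day 21 replicate 4. Sdhc, the other anchor, and Sdha, the flavoprotein that oxidises succinate, were called in no comparison. Their log2 fold changes on day 21 were -1.14 and -0.39 (adjusted p = 0.0766 and 0.642).

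Complex III, which passes electrons from ubiquinol to cytochrome c, had 3 of 8 nuclear genes lower on day 21. Uqcrb, a ubiquinone-binding subunit (chr13:67048655-67053443), stood at 234, 309.6, 368 and 329 CPM on day 0, 294, 140.2, 237 and 522 on day 7, 259, 217 and 257 on day 14, 111, 80.7, 153 and 130.3 on day 21 and 307, 222 and 176 on day 28. The day 21 libraries were all below those of day 0 and day 14, while day 7 spread from below to above the day 0 range. Its log2 fold change on day 21 was -1.38 ± 0.31 SE, edgeR adjusted p = 0.00572, and against day 7 it was -1.33 ± 0.31 SE, edgeR adjusted p = 0.00811. Uqcr10 and Uqcr11, small subunits of the membrane part, changed by -0.87 and -0.75 on day 21 (edgeR adjusted p = 0.0221 and 0.0451), and each call was lost when some single library was left out. Uqcr10 overlaps exons of Zmat5 on the other strand. Uqcrfs1, the Rieske iron-sulphur protein, fell between days 7 and 21, at -1.49 ± 0.38 SE, edgeR adjusted p = 0.0139, which was lost with the mouse block (adjusted p = 0.134) and without day 21 replicate 1 or 4. Against day 0 it was at 0.47 and -1.02 on these days, neither called (adjusted p = 0.418 and 0.0921). Uqcrq, at 0.48, 0.13 and 0.08 on days 7, 14 and 21, was the 1 nuclear gene of the complex above 0 on days 14 and 21, against 4 of 8 on day 7, and had no call (adjusted p = 0.133, 0.872 and 0.882).

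Complex IV, cytochrome c oxidase, had the largest share of nuclear genes lower on day 21, 6 of 12. Cox5a, a subunit of the matrix side of the enzyme (chr9:57428456-57440678), was the nuclear gene called higher on day 7. It stood at 70.0, 57.4, 95.4 and 158 CPM on day 0, 237, 230, 203 and 165 on day 7, 76.8, 111 and 106 on day 14, 75.7, 38.4, 67.4 and 51.2 on day 21 and 57.5, 54.6 and 33.6 on day 28. All 4 day 7 libraries were above every library of the other days. The log2 fold change was 1.13 ± 0.30 SE, edgeR adjusted p = 0.00892, on day 7. From day 7 to day 21 it was -1.82 ± 0.32 SE, edgeR adjusted p = 0.000797, and from day 7 to day 28 it was -2.10 ± 0.36 SE, edgeR adjusted p = 0.000339. All 3 calls held in the 31 alternatives tried. Its partner Cox5b, which binds zinc at the same face, stood at 208, 207, 146 and 240.1 CPM on day 0, 237, 235, 122 and 165 on day 7 and 99.1, 36.4 and 89.5 on day 28. Its log2 fold change on day 28 was -1.41 ± 0.33 SE, edgeR adjusted p = 0.034. Against day 7 it was -1.33 ± 0.33 SE, edgeR adjusted p = 0.0074. Both Cox5b calls were lost without day 28 replicate 2, the lowest library, and in the fit of the 2 days compared only. The call against day 0 was lost in 8 of 31 alternatives. Among them were the mouse block (edgeR adjusted p = 0.159) and 4 fits without 1 library.

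On day 21 the members that fell were Cox7c, Cox6a1, Cox4i1, Cox7b, Cox6c and Cox8a, nuclear subunits that surround the catalytic core. Cox6a1 stood at 238, 184, 266 and 205 CPM against 354, 422, 502 and 455 on day 0 (-0.95 ± 0.20 SE, edgeR adjusted p = 0.00351). Cox4i1, the largest nuclear subunit and a regulator of the enzyme, stood at 477, 365, 419 and 405 against 765, 854, 632 and 770.3 (-0.86 ± 0.20 SE, edgeR adjusted p = 0.0077). Neither pair of ranges overlapped. Cox7b, Cox6c and Cox8a changed by -0.83, -0.74 and -0.73 (edgeR adjusted p = 0.0262, 0.0319 and 0.0288), and each of the 3 lost its call when some single library was left out. Cox4i1 and Cox6c overlap exons of Emc8 and Vps13b on the other strand. Cox6b1, which lies between the monomers of the dimer, was not called against day 0 but was lower than on day 7 on days 21 (-0.97, edgeR adjusted p = 0.00484) and 28 (-0.68, adjusted p = 0.0455). The day 21 call was lost with the mouse block (adjusted p = 0.0989), and the day 28 call in 21 of 31 alternatives, among them both blocks and 15 fits without 1 library. Cox7a2 and Cox7a2l, the latter known for joining complexes III and IV, were called nowhere (-0.70 and -0.49 on day 21, adjusted p = 0.0578 and 0.28). Ndufa4, which carries a complex I symbol but is now counted as a complex IV subunit, was at -0.47 (adjusted p = 0.272).

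The rarer isoforms of complex IV were under the 180-count minimum. Over all 18 libraries Cox4i2, the hypoxia and lung isoform, had 105 counts, Cox6b2, the testis isoform, had 63, and the heart and muscle isoforms Cox7a1, Cox8b and Cox6a2 had 25, 24 and 17. The testis isoforms Cox7b2 and Cox8c had 1 count and none. Ndufa4l2, a hypoxia-induced relative of Ndufa4, had 105 counts, 50 of them in the 4 day 0 libraries and 8 in the 4 of day 21 (log2 fold change -2.19, edgeR adjusted p = 0.264). Of Cox8b, 10 of the day 21 counts and 12 of the day 28 counts came from 1 library each.

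Cox7c needs its near-copy beside it, because the counts of both cannot be kept apart with certainty. Cox7c lies on chromosome 13 and Cox7c-ps1, which the rule also chose by name, is annotated as a transcribed processed pseudogene of 192 bases at chr17:26120836-26121027 (GRCm39). The pseudogene matches Cox7c messages over its full length but for 2 bases, the substitutions being G30C and G107A (Cox7c base first, positions counted from 1 at the first base of Cox7c-ps1). Both are shown over this stretch, where a short read can fit either gene, with the differing bases in capitals. The Cox7c message, of which the stretch is printed from the annotated transcript on the minus strand of chr13:86192935-86195023, runs 119 bases further.
Cox7c: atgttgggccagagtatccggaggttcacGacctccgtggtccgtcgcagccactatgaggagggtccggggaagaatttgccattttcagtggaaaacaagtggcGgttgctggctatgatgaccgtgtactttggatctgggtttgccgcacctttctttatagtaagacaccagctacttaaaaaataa
Cox7c-ps1: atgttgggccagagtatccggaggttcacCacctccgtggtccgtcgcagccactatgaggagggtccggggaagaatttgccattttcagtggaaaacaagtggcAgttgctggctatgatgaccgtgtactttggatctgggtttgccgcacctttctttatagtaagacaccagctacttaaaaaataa

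Cox7c held 1202 counts over all libraries and the pseudogene 2589. Cox7c stood at 107, 139, 221 and 132 CPM on day 0, 137, 95.2, 97.7 and 234 on day 7, 81.6, 72.3 and 56.1 on day 14, 28.4, 62.6, 47.7 and 34.9 on day 21 and 90.5, 154 and 81.5 on day 28, the day 14 and day 21 libraries all lying below day 0. Its log2 fold change on day 21, -1.79 ± 0.35 SE, edgeR adjusted p = 0.00183, was the largest fall among the members on that day. Cox7c-ps1 stood at 149, 262, 228 and 374 CPM on day 0 and 174, 101, 230.2 and 226 on day 21, with a log2 fold change of -0.47 ± 0.32 SE, edgeR adjusted p = 0.425. With the 2 summed, the libraries held 256 to 506 CPM on day 0 and 164 to 278 on day 21, and the day 21 change was -0.83 ± 0.28 (SE, edgeR adjusted p = 0.0613), so that the call was lost. Against day 7 the sum was at -0.79 (adjusted p = 0.0903) on day 21. Another pseudogene with the same 192 bases as Cox7c, Gm12338, had 27 counts. Ndufa12 and Uqcrh, neither of them called on any day, share 350 and 84 bases with the counted genes Slc25a38 and Paip2.

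**Figure D4:**
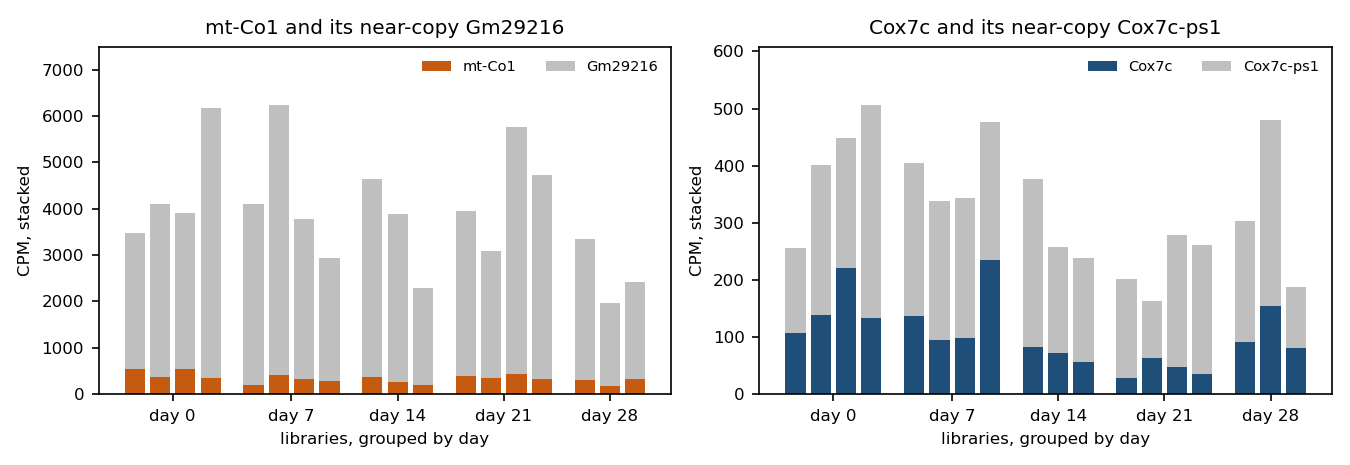
CPM of mt-Co1 and its nuclear near-copy Gm29216 (left) and of Cox7c and its pseudogene Cox7c-ps1 (right), stacked, 1 bar per library and grouped by day. The grey near-copy takes most of the summed counts in each mt-Co1 bar, and Cox7c falls more between days 0 and 21 than the stacked height does.

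Complex V, ATP synthase, was the complex with the lowest share of nuclear falls on day 21, 1 of 16. The call was Atp5g3 (Atp5mc3 in current nomenclature), a gene for the c subunit whose ring turns in the membrane as protons pass (chr2:73738779-73741933). Atp5g3 stood at 217, 406, 432 and 329 CPM on day 0, 331, 261, 277 and 236 on day 7, 282, 198 and 176 on day 14, 155, 94.8, 174 and 158 on day 21 and 218, 144 and 216 on day 28. All 4 day 21 libraries were below all of day 0 and of day 7. Its log2 fold change was -1.25 ± 0.26 SE, edgeR adjusted p = 0.00328. Atp5g1 encodes the same mature c subunit; it stood at 384, 212, 215 and 184 CPM on day 21 against 176, 313, 234 and 253 on day 0 (0.03 ± 0.29 SE, edgeR adjusted p = 0.971). The third such gene, Atp5g2, had 9 counts in all and was left out by the minimum.

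The remaining complex V genes split in direction on day 21. Atp5e, the epsilon subunit of the central stalk, was at 0.26 (edgeR adjusted p = 0.504), and Atp5o, which ties the peripheral stalk to the head, at 0.27 (adjusted p = 0.606). The catalytic Atp5b and the head subunit Atp5c1 were at -0.65 and -0.62 (adjusted p = 0.0957 and 0.0916). Atp5d, the delta subunit of the central stalk, had the smallest p of the complex among genes below 0 on days 7 and 14, at -0.45 and -0.69 (adjusted p = 0.273 and 0.195). Atp5mpl and Atp5md encode the small accessory proteins proteolipid MLQ and DAPIT. Atp5mpl stood at 233, 205, 263 and 244 CPM on day 7, 94.6, 121, 118 and 114 on day 21 and 135, 52.9 and 49.5 on day 28. Against day 7 its log2 fold change was -1.08 ± 0.30 SE, edgeR adjusted p = 0.0264, on day 21, a call lost with the mouse block (adjusted p = 0.414) and in 5 fits without 1 library. On day 28 it was -1.57 ± 0.34 SE, edgeR adjusted p = 0.00263. Atp5md was called nowhere, with 0.38 on day 7 and 0.10 on day 28 (adjusted p = 0.373 and 0.915). Also below their day 7 level on day 28 were Atp5l (-0.82, edgeR adjusted p = 0.0179) and Atp5pb of the peripheral stalk (-1.49, adjusted p = 0.0301). Atp5pb had 1 very low day 28 library, at 97.7, 4.96 and 89.5 CPM over the 3. Its call was lost without that library, without day 7 replicate 1 or 2, and in the fit of days 7 and 28 only. The Atp5l call was lost without day 7 replicate 1 or 2, without day 28 replicate 2 or 3, and in that same fit.

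Summed by complex, all nuclear totals were lowest in the mean on day 21 except that of complex V. As a percentage of the day 0 mean the day 21 sums were 61.4% for complex I, 52.0% for II, 65.1% for III, 59.4% for IV and 78.5% for V. On day 7 the complex V sum was at 99.8% and that of complex I at 78.3%. Complex V held 4685 to 5223 CPM on day 0, 4688 to 5495 on day 7, 3783 to 4192 on day 21 and 2922 to 4399 on day 28, so that day 7 overlapped day 0 and days 21 and 28 did not. The mt- sums on day 21 were 96.1% (I), 90.0% (III), 106% (IV) and 106% (V) of their day 0 means.

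**Figure D5:**
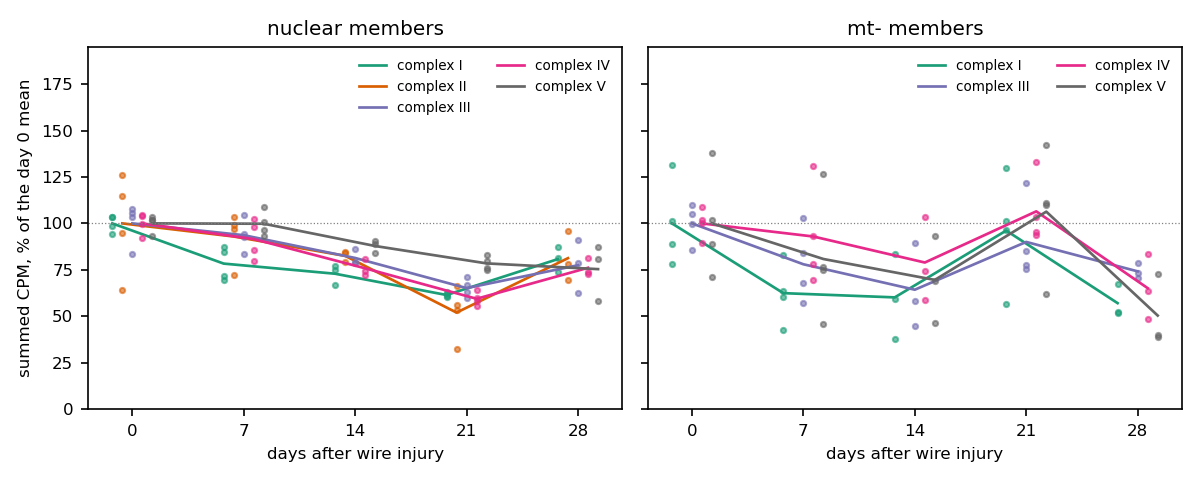
Summed CPM of each complex as a percentage of its day 0 mean, for nuclear genes (left) and mt- genes (right), by day after injury. Points are libraries and lines join the day means. On day 21 the nuclear sums lie between 52.0 and 78.5% and the mt- sums between 90.0 and 106% of day 0.

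The 12 mt- genes were all below 0 on days 7, 14 and 28, and the calls fell on 3 genes of complex I on day 7. Mt-Nd4 and mt-Nd5 encode proton-pumping subunits of the membrane arm, and mt-Nd4l a small subunit whose gene overlaps the start of mt-Nd4. Mt-Nd5 stood at 247, 288, 174 and 332 CPM on day 0 and 135, 133, 109.6 and 115 on day 7, with no overlap (-1.08 ± 0.28 SE, edgeR adjusted p = 0.00698). Days 14, 21 and 28 gave 221, 115 and 130.5, 247, 137, 240.1 and 149 and 169.5, 238 and 133 CPM. Its end overlaps mt-Nd6 on the other strand, and mt-Nd6 itself had 134 counts in all. Mt-Nd4 stood at 2184, 3015, 2786 and 4298 CPM on day 0 and 1745, 2196, 1499 and 1398 on day 7, day 7 replicate 2 lying just above day 0 replicate 1 (-0.84 ± 0.28 SE, edgeR adjusted p = 0.0342). Mt-Nd4l had few counts, with 83.4, 32.3, 89.4 and 36.7 CPM on day 0, 5.34, 21.6, 9.97 and 9.69 on day 7 and 1 day 28 library at 0 (-2.35 ± 0.69 SE, edgeR adjusted p = 0.0157 on day 7). Of these 3 calls, that of mt-Nd5 held when each library was left out in turn, and none held with the mouse block.

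Mt-Nd1, part of the ubiquinone site of complex I, was the mt- gene called over all days (edgeR adjusted p = 0.0236). It stood at 1936, 2518, 2139 and 2854 CPM on day 0, 1615, 2223, 1738 and 925 on day 7, 1787, 1331 and 799.8 on day 14, 2791, 1255, 2888 and 2262 on day 21 and 1351, 1006 and 874 on day 28. All day 14 and day 28 libraries were below day 0, but no single day passed the test (day 28 -1.13 ± 0.31 SE, edgeR adjusted p = 0.0737). Mt-Nd2 and mt-Nd3 were at -0.99 and -0.23 on day 28 (adjusted p = 0.185 and 0.709). Mt-Cytb, the catalytic core of complex III, stood at 4872, 3963, 4606 and 5077 CPM on day 0, 3590, 3504, 5632 and 3944 on day 21 and 3631, 3270 and 3400 on day 28 (day 21 -0.15 ± 0.22 SE, edgeR adjusted p = 0.764). Mt-Co2 and mt-Co3 of complex IV were at 0.05 and 0.14 on day 21 (adjusted p = 0.94 and 0.781), mt-Co3 standing at 7401, 9021, 9645 and 9204 CPM on day 0 and 8263, 9344, 11970 and 9400 on day 21. Mt-Atp6 and mt-Atp8 of complex V, which share 1 message, were at 0.09 and 0.08 on day 21 (adjusted p = 0.913 and 0.961). From day 7 to day 21 all 12 mt- genes moved above 0, with a median of 0.54 and none called (5 at an unadjusted p under 0.05, 2 called by DESeq2), while 67 of the 77 nuclear genes moved below 0, with a median of -0.41. Of the 10312 genes tested, 2043 had an unadjusted p under 0.05 between these days (edgeR), and DESeq2 called 998.

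Mt-Co1, the catalytic core of complex IV, shares its counted end with a nuclear copy of mitochondrial DNA. The gene lies at chrM:5328-6872 and the unprocessed pseudogene Gm29216, of 492 bases, at chr1:24654787-24655278 on the minus strand (GRCm39). Their last 479 bases are identical, of which the last 60 are shown (chrM:6813-6872 and chr1:24654787-24654846) because 3′ end sequencing counts messages there.
mt-Co1: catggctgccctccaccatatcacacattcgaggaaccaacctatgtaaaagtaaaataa
Gm29216: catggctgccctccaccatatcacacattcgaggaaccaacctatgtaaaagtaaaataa

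The table credits 40955 counts to Gm29216 and 3940 to mt-Co1, which took 4.94 to 15.5% of the summed counts in a library. A read from this end can belong to either gene, so the level of mt-Co1 alone is uncertain. Mt-Co1 was at -0.57, -0.74, -0.26 and -0.77 on days 7, 14, 21 and 28 (edgeR adjusted p = 0.137, 0.15, 0.628 and 0.192). The sum of both was at -0.05, -0.29, -0.01 and -0.78, again with no call (adjusted p = 0.932, 0.729, 0.992 and 0.191). Counting Gm29216 with the mt- genes left the day 21 minus day 0 difference of the mean log2 ratio of nuclear to mt- counts at -0.61, and moved that of day 7 from 0.15 to 0.12.

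Measured against day 7 in place of day 0, the nuclear genes had 12 lower and none higher on day 21 (3.23% and 4.03% of all genes), spread over complexes I (2), II (2), III (2), IV (4) and V (2). On day 28, 6 were lower and 1 higher (8.05% and 6.40% of all genes), the falls being 3 of complex IV and 3 of complex V. On day 14 no member was called (0.330% of all genes lower, 1.33% higher), with 5 of the 89 at an unadjusted p under 0.05 and 3 nuclear genes called by DESeq2. Of the 10312 genes tested, 1100 had such a p and DESeq2 called 292. Of the 12 nuclear genes lower on day 21 than on day 7, 6 were also among the 22 lower than on day 0: Atp5g3, Cox7b, Cox7c, Ndufb4, Sdhb and Uqcrb. These are 6 of 12 and 6 of 22. Both comparisons use the same 4 day 21 libraries, so some overlap is built in and is not read as agreement. In the mouse block only replicate 2 of the day 21 libraries stood outside the shared mice. With it 223 of all genes were called between days 7 and 21, against 416 higher and 333 lower without it. Of the nuclear genes 6 were then called between these days, 5 of them from the 12, so that Atp5mpl, Cox6b1, Cox7c, Ndufa10, Ndufb4, Sdhd and Uqcrfs1 lost their calls. Without day 21 replicate 4 the count was 5, and without day 28 replicate 2 the count between days 7 and 28 was 3.

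Over all days, the test for any difference among the 5 days called 23 of the 77 nuclear genes (29.9%) and 1 of the 12 mt- genes, against 18% of all genes tested. By complex these were 11 of 37, 2 of 4, 1 of 8, 7 of 12 and 2 of 16 nuclear genes in I to V. Cox5a had the smallest adjusted p (0.000206 by edgeR), then Ndufs5 (0.00122) and Cox7c (0.00248). In all, 36 of the 89 genes were called in at least 1 comparison between 2 days (33 nuclear, 3 mt-) and 53 in none, against 27.4% of all genes tested called in at least 1 of the same 7 comparisons.

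Other mitochondrial genes gave a mixed picture over the same days. Of all genes tested, 2.93% were called lower and 5.92% higher on day 21, and 8.53% and 11.3% on day 7. Between days 7 and 21, 3.23% were lower and 4.03% higher. Calls of a few genes in the short lists below are not read as results about a list. In a list of assembly factors and carriers, of which 47 were tested, none was higher and 3 were lower on day 21, with a list median of -0.01. Besides factors that build the complexes, the list holds Ndufab1 and Cyc1, subunits of complexes I and III whose symbols the rule did not match. The 3 lower genes were the acyl carrier Ndufab1 (-1.05, edgeR adjusted p = 0.0113), the complex I assembly factor Ecsit (-1.80, adjusted p = 0.0229) and the complex V assembly factor Fmc1 (-1.54, adjusted p = 0.0072). Cycs, the somatic cytochrome c that links complexes III and IV, was higher on day 7 (1.15, edgeR adjusted p = 0.00878), the day on which Cox5a was higher. The list had 3 genes lower on day 7. Of 30 listed regulators of mitochondrial biogenesis and expression, 20 were tested. Among these 20 none was called over all days or against day 0 by edgeR. At an unadjusted p under 0.05 there were 0, 0, 0 and 2 on days 7, 14, 21 and 28, against 3066, 1770, 2263 and 1521 of all genes tested. Of those listed, Ppargc1b, Esrrg and Ppara had only 5, 5 and 1 counts in all. The smallest p-values over all days belonged to Lrpprc, Fastkd5 and Fastkd2 (adjusted p = 0.125, 0.332 and 0.347).

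In the tricarboxylic acid cycle 2 of 21 genes were lower on day 21 and none was higher, with a median of -0.43. Both encode succinyl-CoA ligase, which stands just before complex II: Suclg1 (-1.75, edgeR adjusted p = 0.000603) and Suclg2 (-2.17, adjusted p = 0.00655). On day 7 the kinase Pdk2, listed with the cycle, was lower (-1.90, edgeR adjusted p = 0.0128). Malate dehydrogenase Mdh2 was higher (0.74, edgeR adjusted p = 0.0417) and fell from day 7 to day 21 (-1.17, adjusted p = 0.00578). In fatty acid oxidation 1 of 18 was lower on day 21, the dehydrogenase of very long chains Acadvl (-1.26, edgeR adjusted p = 0.0125). The dehydrogenase of medium chains Acadm was lower on day 7 (-1.67, adjusted p = 0.00616) and the carnitine carrier Slc25a20 higher (1.12, adjusted p = 0.0196). Of 36 carriers and membrane proteins 1 was higher and 1 lower on day 21, with a median of -0.42, and 9 fell between days 7 and 21, among them the ADP/ATP carrier Slc25a5 (-1.31, adjusted p = 0.0177) and prohibitin Phb2 (-1.22, adjusted p = 0.00517). On day 7 Timm22 of the carrier translocase and the fusion protein Mfn2 were lower (-1.38 and -1.18, adjusted p = 0.000638 and 0.0255), and the peroxiredoxin Prdx5 was higher (0.95, adjusted p = 0.0155).

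Glycolysis had 1 of 16 genes higher and 3 lower on day 21, with a median of -0.35. Pyruvate kinase Pkm was -1.003 (edgeR adjusted p = 0.00473) and lactate dehydrogenase Ldhb -1.57 (adjusted p = 0.0123), while Ldha was 1.07 (adjusted p = 0.0306). On day 7, 2 were higher, phosphoglycerate kinase Pgk1 at 1.11 and Ldha at 1.57 (edgeR adjusted p = 0.0176 and 0.000704), and 2 were lower, Ldhb at -2.58 and phosphofructokinase Pfkp at -1.34 (adjusted p = 7.85e-05 and 0.00151). As sums, the day 21 means of these lists were 84.9% (assembly), 91.7% (regulators), 74.2% (tricarboxylic acid cycle), 78.1% (fatty acid oxidation), 72.2% (carriers and membrane) and 75.6% (glycolysis) of day 0, beside 65.8% for the nuclear subunits.

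The nuclear subunit genes had most calls on day 21, all lower, and their promoters were read for 4 short motifs of factors known to drive respiratory genes. The windows were RefSeq's, from 250 bases before to 50 after the start (GRCm38.p6), and 64 of the 77 genes had one. Both strands were searched for the exact letters GCATGCGC (NRF1), CCGGAAGT (the ETS factor GABPA), AAGATGGC (YY1) and TCAAGGTCA (ERR), of which none contains another. Of the 64 genes, 9 held the NRF1 letters (14.1%, against 3.05% of all 27025 genes with a window and 6.06% of the 8168 tested), and 10 held the YY1 letters (15.6%, against 3.19% and 5.63%). The GABPA letters were in 5 (7.81%, against 4.31% and 9.56%) and the ERR letters in 2 (3.12%, against 0.466% and 0.306%). Among the 18 genes lower on day 21 that had a window, 3 held NRF1, 2 GABPA, none YY1 and 1 ERR letters; among the other 46 the numbers were 6, 3, 10 and 1. Such matches describe the letters in the window only. The following matches before the start belong to genes that fell on day 21 and show what such a match looks like, with the motif in capitals and its surroundings in lower case, on the strand of the gene; in Atp5g3 the motif lies on the opposite strand.
Sdhb, chr4:140961207-140961234, plus strand: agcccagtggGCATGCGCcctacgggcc
Cox6a1, chr5:115349101-115349128, minus strand: ggaacggggcGCATGCGCgctctcgctc
Uqcr11, chr10:80406870-80406897, minus strand: tctctcctccCCGGAAGTagatgtcaat
Atp5g3, chr2:73911360-73911388, minus strand: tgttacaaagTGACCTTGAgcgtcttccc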

How the data were processed

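RNA of 18 mouse carotid libraries was sequenced from the 3′ end. The deposited table holds estimated counts per gene: the authors removed duplicates by molecular identifier, cropped adapters and low-quality bases, and estimated abundance by Salmon 1.9.0 on the mm39 transcriptome. Annotation release and use of strand are not given in the sources used here. The table of DESeq2 1.36.0 normalised values was not used, since the tests need counts. All values were whole numbers. The libraries held 440675 to 878310 counts, which limits the precision for genes of low count.

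Counts were scaled by TMM, filtered by filterByExpr and fitted over all 18 libraries with edgeR 4.0.16 (quasi-likelihood, R 4.3.3), and p-values were adjusted by Benjamini-Hochberg over 10312 genes at 0.05. The procedure was tested on simulated data. DESeq2 1.42.0, other scalings, no filter, fits of 2 days only, replicate and mouse blocks, thinned counts, near-copy counts and leaving out each library were alternatives. The members and gene lists were chosen with earlier results of these data known. Genes were named by rule: all mt- genes, the smallest p per complex, day and direction, all Sdh genes, isoform sets, and up to 3 genes per pathway list by p over all days. The other called genes, Cycs, Ldha, Pfkp, Pdk2, Mfn2, Prdx5, Ndufv2, single marker genes and genes sharing sequence were named after their values were seen. Positions are from GENCODE vM39 (GRCm39).

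Libraries of a day were taken as separate samples, as their mouse numbers differ. The p-values set each difference between days against the spread between these libraries, and the main fit holds no term for the mouse. Residuals of same-numbered libraries did not correlate (33 pairs, median -0.006, range -0.132 to 0.205). The 3 mice numbered on both day 0 and day 21 are the same animal by label (residual correlation -0.007 to 0.055), so the mouse block is given where it changes a count.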

Additional observations from a re-analysis of the deposited data

Results flagged for a closer look

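In day 0 replicate 4 the log2 ratio of nuclear to mt- counts was -1.268, set apart from the other 3 day 0 libraries at -0.9617 to -0.9035. It was the 1 case among 105 groups of 4 libraries looked at, where chance sets apart about 1 in 20.

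For these genes the change from day 0 differed between 2 days when the days were compared directly (edgeR, adjusted p under the threshold). Between days 7 and 21 the log2 difference was -0.81 for Ndufb4, -1.072 for Sdhb, -1.328 for Uqcrb, -1.823 for Cox5a, -0.974 for Cox7b, -1.713 for Cox7c and -0.92 for Atp5g3, all lower on day 21. Between days 7 and 28 it was 1.101 for Ndufv1, which was higher on day 28, and -2.098 for Cox5a and -1.333 for Cox5b, which were lower. Of these, the differences of Cox5a, Cox7b and Uqcrb between days 7 and 21, and of Cox5a and Ndufv1 between days 7 and 28, kept their call in all 31 alternatives. That of Cox7c was lost with the mouse block and with the counts of Cox7c-ps1 added. The Ndufb4 difference was lost in 18 of 31 alternatives and that of Atp5g3 in 6 fits without 1 library. Sdhb lost its call without day 21 replicate 4, and Cox5b in the fit of 2 days and without day 28 replicate 2.

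Outside the chosen genes, Gm29216, the nuclear copy of the end of mt-Co1, held 40955 counts over the 18 libraries, against 3940 for mt-Co1.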

How the results depend on the processing

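Of 55 calls of single genes, 17 were kept in every alternative, 23 whichever library was left out, and none reversed; scalings leave the ratio of nuclear to mt- counts as it is by construction, and leaving out a library kept its day 21 difference from day 0 between -0.724 and -0.494. The Cox7c-ps1 sum was chosen after seeing the data. Of the members Ndufs1, mt-Atp8 and mt-Nd4l had the fewest counts (367, 418 and 420). The cause was not tested for any of the following. Nuclear genes called on day 7 (8) were 5 without a filter on low counts, 5 with the replicate block and 2 with the mouse block (all genes: 2297, 1911 and 1047). Leaving out a library gave 4 to 10. On day 14 (1) the nuclear genes called were 7 by DESeq2 and 4 with scaling without any member (all genes: 860 and 644). No filter gave 0, the replicate block 2 and the mouse block 0 (all genes: 932, 514 and 199). Leaving out a library gave 0 to 4. On day 21 (22) the replicate block gave 17, DESeq2 31 and no filter 15, and leaving out a library 13 to 25. Totals of all genes called on day 21 under these settings are not given here. These counts alone therefore do not show a change particular to the subunits. On day 28 (2) the nuclear genes called were 5 by DESeq2, 4 without a filter and 0 in the fit of 2 days (all genes: 366, 363 and 32). The replicate block gave 1, the mouse block 0 and thinned counts 1 (all genes: 72, 3 and 100). Leaving out a library gave 0 to 4. From day 7 to day 14 (0) DESeq2 called 3 (all genes: 292). From day 7 to day 21 (12) the mouse block gave 6 (all genes: 223), with a median of -0.502, and leaving out a library 5 to 13. From day 7 to day 28 (7) the fit of 2 days gave 3 (all genes: 922) and leaving out a library 3 to 9. Mt- genes called on day 7 (3) were 5 without a filter, 0 with the mouse block and 1 to 5 leaving out a library. On day 14 (0) they were 2 without a filter and 0 to 3 leaving out a library, and the mouse block moved the median to -0.218. On day 28 (0) they were 1 by DESeq2, 4 without a filter, 1 in the fit of 2 days and 0 to 2 leaving out a library, with a median of -0.366 under the mouse block. From day 7 to day 21 (0) the mt- genes called were 2 by DESeq2, 2 without a filter and 2 in the fit of 2 days (all genes: 998, 956 and 1047). Leaving out a library gave 0 to 2. From day 7 to day 28 (0) the mt- genes called were 1 without a filter (all genes: 1721) and 0 to 1 leaving out a library. Over all days (1) the mt- genes called were 5 by DESeq2, 2 with RLE, 2 with upper quartile and 3 with scaling without any member (all genes: 2591, 1900, 1872 and 1877). No filter gave 6, the mouse block 0 and thinned counts 2 (all genes: 2571, 1399 and 1768). Leaving out a library gave 1 to 5. Replicates 3 and 4 of days 0 and 21 each come from the same mouse by label, so the replicate block holds part of the pairing of these days. The other same-numbered libraries share only a number. In comparisons other than day 21 against day 0, a call lost under the replicate block is not read as a weaker effect.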
